A study of Mus musculus with 18 samples.

Results

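The Dlx and Msx homeobox genes were followed across sorted mouse dermal cells. The 8 genes, Dlx1, Dlx2, Dlx3, Dlx4, Dlx5, Dlx6, Msx1 and Msx2, were taken by symbol, and all 8 were measured among 18193 genes with a probe set of a single gene symbol. They had 12 such probe sets. Each gene is represented by its brightest probe set over 18 arrays, and the further ones of Dlx3, Dlx4, Msx1 and Msx2 served as a check.

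Cells were sorted from mice carrying the R26mTmG reporter, in which Cre turns a cell and its descendants from red to green fluorescence, and their RNA was measured on Affymetrix mouse expression arrays, 3 per group. EPF (green, not red) and ENF (red, not green) were the dorsal dermal cells of En1Cre; R26mTmG animals labelled postnatal day 56, although the protocol puts back skin at 30 days. The other groups were green, not red, and labelled postnatal day 30. Oral cells came from oral mucosa and Cranial cells from cranial dermis of Wnt1Cre; R26mTmG mice, and Ventral and Dorsal cells from the dermis of those sites in En1Cre; R26mTmG mice. The gate in all groups left out cells with DAPI, EpCAM, CD31, CD45, Tie2 or what the labels spell Tie119, and no animal was treated. Wnt1Cre marks neural crest descendants among others, and En1Cre marks descendants of Engrailed-1 cells, so body site, lineage and Cre line cannot be told apart between head and trunk. The labels do not say whether arrays came from separate animals, so p-values measure the spread between these arrays, which may be technical.

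Dlx and Msx genes encode homeodomain transcription factors. In the embryo, Dlx genes pattern the branchial arches and forebrain, and nested Dlx expression in neural crest mesenchyme helps to set upper from lower jaw identity. Dlx1 and Dlx2 act in both jaw parts of the arch, while Dlx5 and Dlx6 act downstream of endothelin-1 signalling in the lower part. Dlx3 and Dlx4 are a further linked pair, and Dlx3 is known for roles in epidermis, hair and tooth. Msx1 and Msx2 are BMP-responsive repressors of craniofacial mesenchyme, tooth and skull, and Msx2 is also found in the hair matrix.

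The Dlx genes lie in neighbouring pairs (mouse GRCm38.p6). Dlx1 (chromosome 2, 71528113 to 71533981) and Dlx2 (71543408 to 71546754) are 9.4 kb apart. Dlx6 (chromosome 6, 6863334 to 6867970) and Dlx5 (6877801 to 6882068) are 9.8 kb apart, and Dlx3 (chromosome 11, 95120117 to 95125296) and Dlx4 (95140447 to 95146294) are 15.2 kb apart. Msx1 (chromosome 5, 37820491 to 37824585) and Msx2 (chromosome 13, 53466881 to 53472780) are not linked. Promoters matched in RefSeq for Dlx1, Dlx2, Msx1 and Msx2. The 250 bases before the start site that the RefSeq promoter table uses are shown because Dlx1, Dlx2 and Msx1 differed together between body sites and Msx2 did not, with matches to 4 motifs on either strand in capitals. The motifs were the homeodomain core TAATTA with its variant form TAATTG, the promoter box CCAAT known from many genes, and the GC box spelled GGGCGG. They are chr2:71529195-71529444 (plus strand) for Dlx1, chr2:71546755-71547004 (minus) for Dlx2, chr5:37824586-37824835 (minus) for Msx1 and chr13:53472781-53473030 (minus) for Msx2, each read 5′ to 3′ along its gene. The Dlx1 window lies inside the annotated span of the gene, past its outermost start, whereas the other 3 lie just outside their genes.
Dlx1: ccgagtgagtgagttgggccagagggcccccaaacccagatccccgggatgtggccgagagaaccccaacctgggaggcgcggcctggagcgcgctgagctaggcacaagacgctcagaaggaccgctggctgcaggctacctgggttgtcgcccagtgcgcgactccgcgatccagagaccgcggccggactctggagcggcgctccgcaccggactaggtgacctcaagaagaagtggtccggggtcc
Dlx2: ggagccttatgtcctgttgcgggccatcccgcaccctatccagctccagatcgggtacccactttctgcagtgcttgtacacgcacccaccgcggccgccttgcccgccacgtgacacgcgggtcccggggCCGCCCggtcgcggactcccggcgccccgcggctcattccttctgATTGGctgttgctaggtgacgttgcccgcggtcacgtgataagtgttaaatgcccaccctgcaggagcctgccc
Msx1: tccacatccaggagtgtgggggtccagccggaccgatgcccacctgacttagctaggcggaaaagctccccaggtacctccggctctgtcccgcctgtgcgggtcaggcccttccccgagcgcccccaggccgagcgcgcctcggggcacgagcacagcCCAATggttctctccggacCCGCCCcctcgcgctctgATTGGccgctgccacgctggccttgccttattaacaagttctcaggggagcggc
Msx2: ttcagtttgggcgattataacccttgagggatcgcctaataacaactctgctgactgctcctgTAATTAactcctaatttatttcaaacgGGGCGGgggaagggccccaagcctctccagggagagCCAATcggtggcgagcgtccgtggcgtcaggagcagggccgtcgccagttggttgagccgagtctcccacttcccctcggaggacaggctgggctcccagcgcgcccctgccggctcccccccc

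The homeodomain core matched in the Msx2 window, and its variant in none of the 4. Among 32851 promoter windows of the same length, 4.8% held the core and 7.2% the variant. The CCAAT box matched in the Dlx2, Msx1 and Msx2 windows, as it did in 33.8% of all windows, and the GC box in the same 3, against 32.7%. In the Dlx1 window none of the 4 motifs was found. The 4 windows were rich in CG dinucleotides, with 22 for Dlx1, 24 for Dlx2, 20 for Msx1 and 16 for Msx2, against a median of 6 over all windows.

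All values below are log2 expression after RMA, which compares 1 probe set between arrays and not different genes. The lower quartile of the arrays lay at 3.93 to 4.10 and the median at 5.19 to 5.32, so a difference from a level near 4 is a lower bound. Arrays correlated across genes at 0.946 to 0.998 among the 12 site arrays, 0.962 to 0.988 among the EPF and ENF arrays and 0.872 to 0.926 between these sets, and the Dorsal arrays varied most (0.946 to 0.975). ENF 1 and EPF 2 stood apart in Xist, chosen after its values were seen. It read 5.20 in EPF 2 and 4.98 in ENF 1, against 11.60 to 12.13 in the other EPF and ENF arrays. Any part of animal sex in the EPF and ENF values was not tested. Of 9 fibroblast markers 8 were measured, with array means of 11.07 to 13.55 over all groups. Among them Dcn was at 10.80 in Oral, 12.71 in Cranial, 12.86 in Ventral and 13.20 in Dorsal cells. Lum read 5.65 in Ventral 1 and 9.55 and 9.62 in the other Ventral arrays. Tek, which encodes Tie2, was at 9.45 to 10.84 in EPF and ENF arrays despite the gate, and at 3.61 to 4.40 in the site arrays. Since these are bulk arrays, fewer cells of a type and less RNA per cell cannot be told apart.

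Dlx1 and Dlx2 were higher at both head sites than at both trunk sites and higher in Oral than in Cranial cells. Dlx2 read 8.12, 8.54 and 8.44 in Oral cells, 7.50, 7.49 and 7.83 in Cranial cells, 5.20, 4.82 and 4.94 in Ventral cells and 5.10, 4.96 and 5.14 in Dorsal cells. Each head array lay above every trunk array, each Oral array above every Cranial one, and the trunk groups overlapped. Dlx1 read 6.86, 7.06 and 7.11 in Oral cells, 5.88, 5.64 and 6.30 in Cranial cells, 4.61, 4.47 and 4.50 in Ventral cells and 4.01, 4.47 and 4.41 in Dorsal cells. Its order was Oral, Cranial, Ventral and Dorsal, with the trunk levels near the dim end of the arrays.

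**Figure D1:**
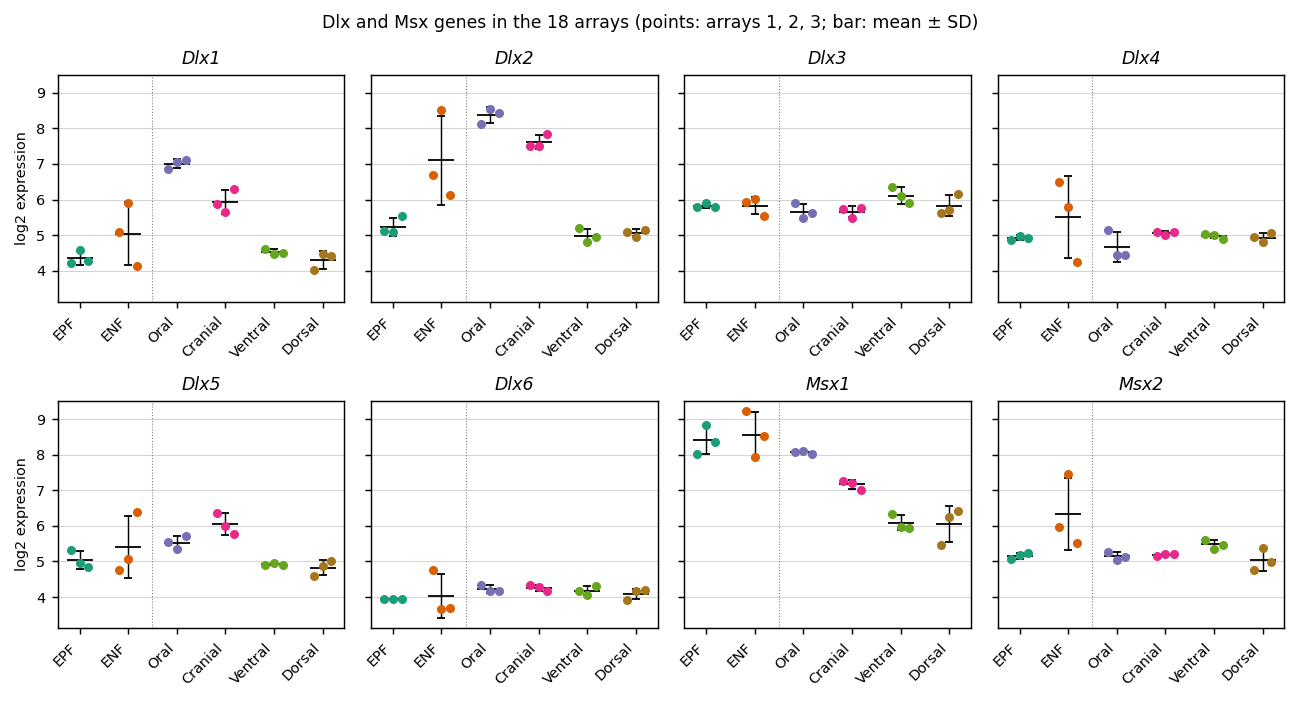
Log2 expression (y axis) of each of the 8 genes in every array of the 6 groups (x axis), with points for arrays 1, 2 and 3 from left to right and bars for the mean ± SD. Dlx1 and Dlx2 stand highest in Oral and then Cranial cells, Dlx5 is highest in Cranial cells among the site groups, Msx1 is high in EPF, ENF and Oral cells, and ENF arrays spread widely for several genes.

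The site groups were tested with limma in 1 fit of 12 arrays, with Benjamini-Hochberg adjustment over 18193 genes and a call at an adjusted p under 0.05. The head-to-trunk comparisons share arrays and are not independent of each other. In Oral against Dorsal cells 4 of 8 genes rose and 4 did not pass the test, while 16.8% of all genes were called and 10.5% were called higher. Dlx2 was 9.84-fold higher (log2 difference 3.30 ± 0.15, SE, adjusted p = 3.94e-07 in limma) and Dlx1 6.55-fold higher (2.71 ± 0.17, adjusted p = 4.60e-06 in limma). Msx1 was higher by 2.02 ± 0.21 and Dlx5 by 0.71 ± 0.16. The median difference was 0.42 over the 8 genes and -0.02 over all genes.

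In Oral against Ventral cells the same 4 genes rose, where 14.6% of all genes were called and 10.3% were called higher. Dlx2 was 10.4-fold higher, by 3.37 ± 0.15 on the log2 scale, and Dlx1 5.60-fold higher, by 2.48 ± 0.17. Msx1 was higher by 1.98 ± 0.21 and Dlx5 by 0.61 ± 0.16 (adjusted p = 0.0295 in limma). The median difference was 0.32 over the 8 genes and -0.02 over all genes.

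Cranial cells also had these 4 genes higher than either trunk group, with 18.7% of all genes called against Dorsal (11.2% higher) and 17.9% against Ventral (11.7% higher). Against Dorsal cells Dlx2 was higher by 2.54 ± 0.15 (5.81-fold), Dlx1 by 1.65 ± 0.17, Dlx5 by 1.23 ± 0.16 and Msx1 by 1.12 ± 0.21. Against Ventral cells the differences were 2.62 ± 0.15 for Dlx2, 1.42 ± 0.17 for Dlx1, 1.13 ± 0.16 for Dlx5 and 1.07 ± 0.21 for Msx1. The largest adjusted p among these 8 calls was 0.00695 in limma, for Msx1 against Ventral. The median difference of the 8 genes was 0.64 against Dorsal and 0.58 against Ventral, and -0.06 over all genes in both.

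**Figure D2:**
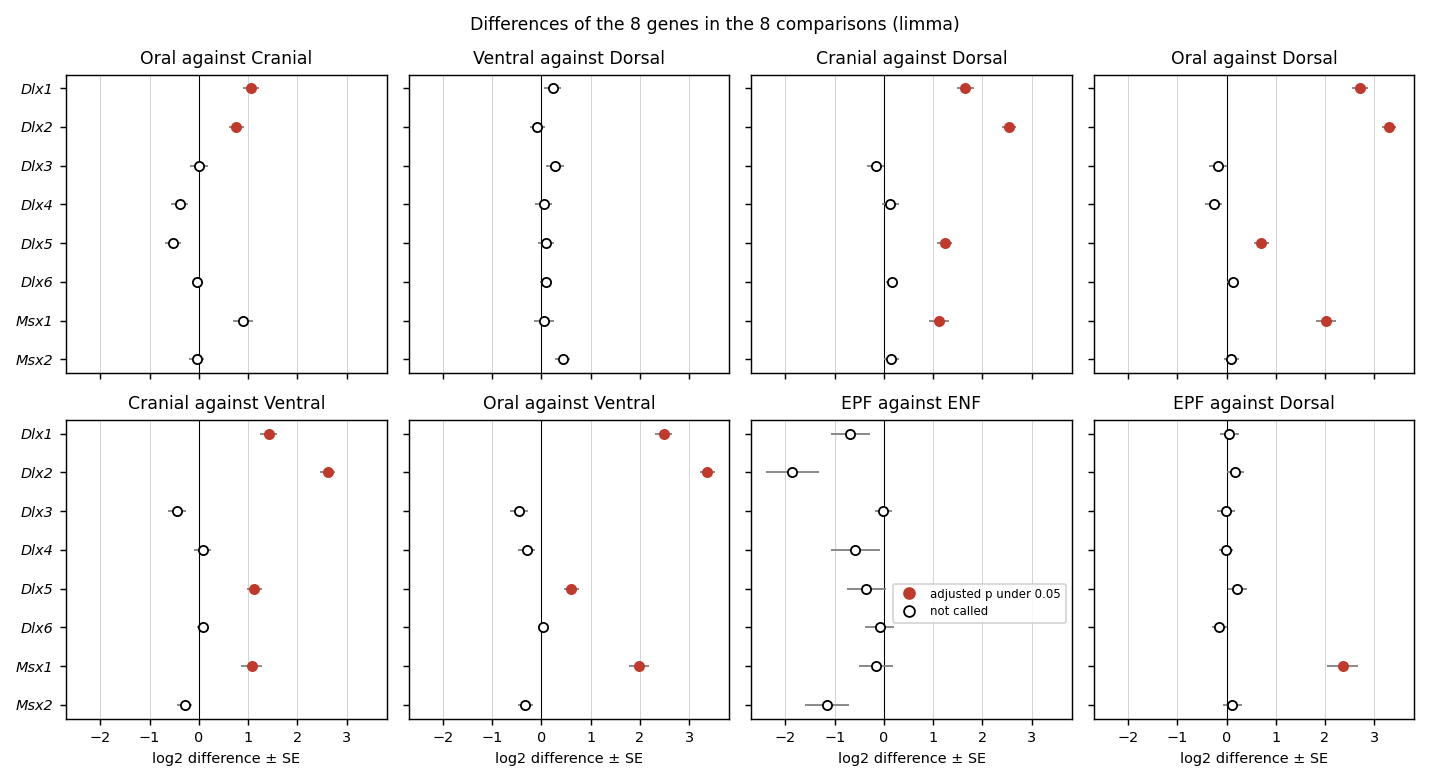
Log2 difference ± SE (x axis) of each gene (y axis) in the 8 comparisons, first named group minus second; filled points passed an adjusted p under 0.05 in limma and open points did not. Dlx1, Dlx2, Dlx5 and Msx1 were higher in each head group against each trunk group, while Dlx3, Dlx4, Dlx6 and Msx2 passed in no comparison.

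Dlx5 differed from the Dlx1 and Dlx2 pattern in where it was highest. It read 5.54, 5.34 and 5.71 in Oral cells, 6.37, 6.01 and 5.78 in Cranial cells, 4.91, 4.95 and 4.91 in Ventral cells and 4.60, 4.87 and 5.01 in Dorsal cells. Every head array lay above every trunk array, and every Oral array below every Cranial one. The Oral minus Cranial difference of -0.52 ± 0.16 did not pass the test (adjusted p = 0.259 in limma). The call against Dorsal was lost without Oral 3, and the call against Ventral without Oral 1, Oral 3 or any 1 of the Ventral arrays, with differences of 0.62 for Dorsal and 0.52 to 0.62 for Ventral. With all 18 arrays in the fit both calls were lost (adjusted p = 0.140 and 0.221 in limma), as was that against Dorsal with just those 6 arrays (adjusted p = 0.0629 in limma).

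Dlx6, the cluster partner of Dlx5, showed no such pattern. It read 4.35, 4.17 and 4.16 in Oral cells, 4.34, 4.27 and 4.17 in Cranial cells, 4.17, 4.06 and 4.32 in Ventral cells and 3.93, 4.16 and 4.19 in Dorsal cells, all close to the lower quartile of the arrays. Its 6 differences between site groups ran from -0.03 to 0.16, with 95% confidence bounds no farther out than -0.28 and 0.42. A probe set this dim may not register a change, so its flat values do not show that Dlx5 and Dlx6 differ.

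Oral against Cranial cells set 2 sites of the Wnt1 lineage side by side. Dlx1 was 2.09-fold higher in Oral cells, at 7.01 ± 0.13 against 5.94 ± 0.33 (SD, n = 3 each; log2 difference 1.06 ± 0.17, adjusted p = 0.0127 in limma). Dlx2 was 1.69-fold higher, at 8.36 ± 0.22 against 7.60 ± 0.19 (0.76 ± 0.15, adjusted p = 0.0405 in limma). These were 2 of 8 genes, while 1.14% of all genes were called and 0.407% were called higher, and the other 6 did not pass. Msx1 stood at 8.07 ± 0.03 in Oral and 7.16 ± 0.14 in Cranial cells, with no overlap, but its difference of 0.90 ± 0.21 did not pass (adjusted p = 0.0899 in limma). The median difference was -0.01 over the 8 genes and 0.04 over all genes.

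The calls in Oral against Cranial cells did not hold in every setting. Without Oral 2, Oral 3, Cranial 1 or Cranial 2 neither Dlx1 nor Dlx2 passed, with adjusted p of 0.0769, 0.0729, 0.0801 and 0.0654 for Dlx1 and 0.178, 0.164, 0.200 and 0.203 for Dlx2 in limma. With all 18 arrays in the fit neither passed (adjusted p = 0.189 for Dlx1 and 0.888 for Dlx2), and Dlx2 did not pass with dim genes left out (adjusted p = 0.0502) in limma. With 1 of those 4 Oral and Cranial arrays left out the differences were 0.91 to 1.04 for Dlx1 and 0.67 to 0.72 for Dlx2, and in a fit of just these 6 arrays Dlx1, Dlx2 and Msx1 rose and Dlx5 fell.

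Ventral against Dorsal cells set 2 sites of the En1 lineage side by side, and none of the 8 genes was called by limma, against 0.0275% of all genes. At an unadjusted p under 0.05 there was 1 of 8, Msx2, against 8.55% of all genes. Msx2 read 5.61, 5.36 and 5.47 in Ventral cells and 4.77, 5.38 and 4.98 in Dorsal cells, which overlap. Its difference was 0.43 ± 0.15 (adjusted p = 0.515 in limma). For Dlx1, Dlx2, Dlx5 and Msx1 the differences ran from -0.08 to 0.23, and the median was 0.10 over the 8 genes and -0.02 over all genes.

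Msx1 rested on 1 of its 2 probe sets. The brighter one read 8.08, 8.09 and 8.03 in Oral cells, 7.27, 7.21 and 7.01 in Cranial cells, 6.33, 5.98 and 5.95 in Ventral cells and 5.47, 6.24 and 6.43 in Dorsal cells. Every Oral array lay above every Cranial one and every Cranial one above every trunk array. The dimmer probe set had means of 6.33 in Oral, 6.12 in Cranial, 6.15 in Ventral and 5.81 in Dorsal cells, and its head and trunk groups overlapped except for Oral against Dorsal cells.

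When every probe set was tested on its own, the dimmer Msx1 probe set was called in none of the 8 comparisons, with its lowest adjusted p, 0.0521 in limma, in Oral against Dorsal cells (difference 0.51 ± 0.16). In Cranial against Ventral cells it was at -0.03 ± 0.16, where the brighter one was higher by 1.07. With both probe sets averaged, Msx1 was still called in 3 of the 4 head-to-trunk comparisons (differences of 0.71, 1.08 and 1.27) and not in Cranial against Ventral cells (0.52, adjusted p = 0.0671 in limma). The call in Cranial against Dorsal cells was also lost with only those 6 arrays in the fit (adjusted p = 0.0594 in limma). Without Dorsal 1, the lowest array for this gene, Msx1 was higher by 1.73 in Oral and by 0.83 in Cranial cells against Dorsal cells.

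**Figure D3:**
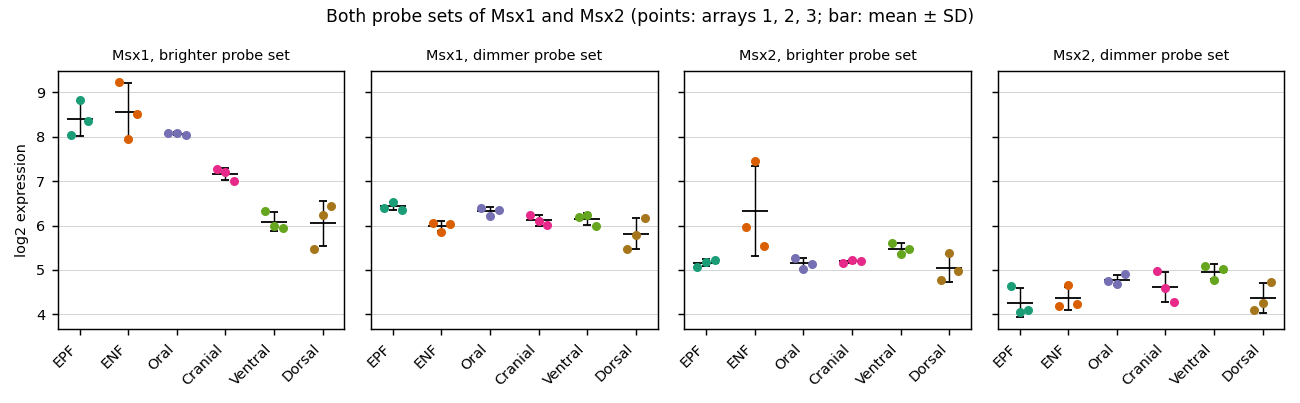
Log2 expression (y axis) of both probe sets of Msx1 and of Msx2 in every array of the 6 groups (x axis), with points for arrays 1, 2 and 3 and bars for the mean ± SD. The brighter Msx1 probe set ran from 5.47 to 9.22 and the dimmer one from 5.48 to 6.54, and the high ENF values of Msx2 were in the brighter probe set.

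Dlx3, Dlx4 and Msx2 passed the test between no site groups. The 6 differences ran from -0.45 to 0.28 for Dlx3, -0.39 to 0.13 for Dlx4 and -0.33 to 0.43 for Msx2, with 95% confidence bounds of -0.83 to 0.66, -0.77 to 0.51 and -0.66 to 0.76. Dlx3 was highest in Ventral cells, at 6.35, 6.09 and 5.89, against 5.74, 5.48 and 5.77 in Cranial cells. Dlx4 was at 5.15 in Oral 1 but 4.44 and 4.43 in the other Oral arrays, against 4.80 to 5.09 in every other site array. In both Oral and Cranial cells every array lay below every Ventral array for Dlx3 and for Msx2. None of these 4 differences (-0.45 to -0.29) passed the test. The share of all genes without overlap was not counted. An unadjusted p under 0.05 was found in 33.6% of all genes in Cranial and 29.1% in Oral against Ventral cells. The second probe set kept this order for Dlx3, while that of Msx2 overlapped. Without Oral 1, Dlx4 was called lower in Oral cells than in Cranial (-0.63, adjusted p = 0.0381), Ventral (-0.54, adjusted p = 0.0145) and Dorsal cells (-0.50, adjusted p = 0.0191 in limma). The second probe sets of the 3 genes were called in no comparison. With all arrays, that of Dlx4 differed by 0.11 in Oral against Cranial, 0 against Ventral and 0.09 against Dorsal cells. The lower Dlx4 values in Oral cells thus rest on 1 probe set.

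EPF against ENF cells compared Engrailed-lineage with other cells of dorsal dermis, fitted on their 6 arrays. None of the 8 genes was called by limma, against 0.308% of all genes. At an unadjusted p under 0.05 there were 2 of 8, Dlx2 and Msx2, against 10.8% of all genes. Dlx2 read 5.11, 5.08 and 5.53 in EPF cells and 6.68, 8.51 and 6.13 in ENF cells, so that every ENF array was higher but ENF 2 was far above the others. Its difference was -1.86 ± 0.54 (adjusted p = 0.273 in limma), and it was called with all 18 arrays in the fit (adjusted p = 0.0193 in limma). Without ENF 2 the difference was -1.16 ± 0.24 (adjusted p = 0.165 in limma).

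Several Dlx and Msx genes spread more in ENF than in EPF arrays. Msx2 read 5.07, 5.19 and 5.23 in EPF cells and 5.97, 7.46 and 5.53 in ENF cells (difference -1.16 ± 0.44, adjusted p = 0.399 in limma). Its highest value, like that of Dlx2, was in ENF 2, without which the difference was -0.59 ± 0.19. Dlx1 read 4.21, 4.58 and 4.28 in EPF cells and 5.08, 5.91 and 4.14 in ENF cells, again highest in ENF 2. Dlx5 read 5.32, 4.95 and 4.85 in EPF cells and 4.75, 5.07 and 6.39 in ENF cells, and was highest in ENF 3. Dlx4 read 4.86, 4.99 and 4.93 in EPF cells and 6.49, 5.78 and 4.26 in ENF cells, and was highest in ENF 1. The array with the highest value thus changed from gene to gene. Msx1 read 8.03, 8.82 and 8.36 in EPF cells and 9.22, 7.94 and 8.51 in ENF cells, which overlap, and its probe sets differed in sign (-0.16 ± 0.34 for the brighter and 0.45 ± 0.15 for the dimmer one, neither called). Dlx3 and Dlx6 differed by -0.01 and -0.09. The median difference was -0.47 over the 8 genes, none of them called, and 0 over all genes.

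Markers of other cells also varied among the EPF and ENF arrays. The mean of 13 measured of 14 keratinocyte genes was 7.86, 5.15 and 6.52 in EPF cells and 7.29, 9.29 and 9.54 in ENF cells. In the site arrays it was 4.84 to 5.18. Among the ENF arrays it was highest in ENF 3, where Dlx1, Dlx2, Dlx4 and Msx2 were lowest and Dlx5 highest. Perp, a desmosome gene, read 11.78, 3.94 and 8.55 in EPF cells and 9.92, 12.60 and 13.30 in ENF cells, and Dsp, which encodes desmoplakin, 11.17, 3.38 and 8.13 in EPF cells and 9.07, 12.18 and 12.11 in ENF cells. The mean of 7 measured of 8 hair matrix and inner sheath genes was 4.62 to 4.80 in EPF cells and 4.76, 5.45 and 4.66 in ENF cells. In that list Krt35, a hair keratin, was at 4.53 to 4.73 in EPF cells and at 4.40, 6.37 and 4.50 in ENF cells. Hoxc13, also of that list, was at 4.46 to 5.65 in EPF cells and at 5.94, 6.10 and 5.80 in ENF cells. The mean of 6 skeletal muscle genes was 5.10 to 5.44 in EPF cells and 6.79, 6.43 and 7.57 in ENF cells. The mean of 7 dermal papilla genes was 6.33, 7.22 and 7.05 in EPF cells and 5.24, 5.69 and 5.33 in ENF cells, with a median difference of 1.14. None of the 7 was called by limma, beside 0.308% of all genes. Of them 5 had an unadjusted p under 0.05, beside 10.8% of all genes. Called lower in EPF than in ENF cells were 2 of 6 skeletal muscle and 1 of 13 keratinocyte genes, and no other listed marker was called. The part of these cells in the Dlx and Msx values was not tested.

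**Figure D4:**
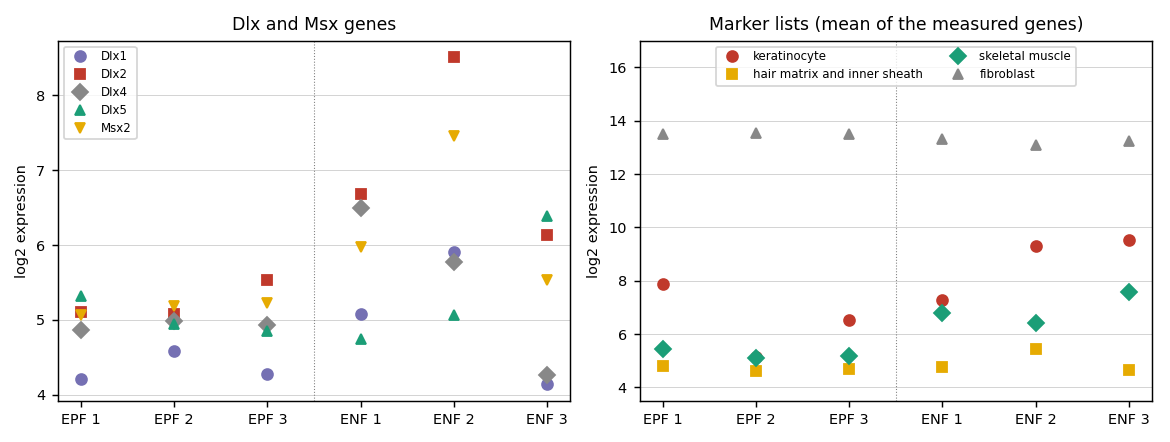
Log2 expression (y axis) in the 3 EPF and 3 ENF arrays (x axis), for 5 Dlx and Msx genes in the left panel and for the means of 4 marker lists in the right panel. Dlx2 and Msx2 peak in ENF 2 at 8.51 and 7.46, where the hair matrix list is at 5.45, and the keratinocyte list is at 9.29 and 9.54 in ENF 2 and ENF 3.

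The keratinocyte list was also followed at the body sites, where Dlx1, Dlx2, Dlx5 and Msx1 differed. Its mean was 4.84 to 4.98 in the head arrays and 4.98 to 5.18 in the trunk arrays. Its genes ran from Cdh1, at 2.99 to 3.52 in the site arrays, to Epcam, at 7.47 to 8.96. Krt10 was at 6.87 to 8.86. These 3 genes were named after their values were seen. Within the list Perp differed between sites, at 6.92 in Cranial and 5.49 in Oral cells against 4.73 in Ventral and 4.51 in Dorsal cells. Krt14, Krt1 and Sfn, named after their values were seen, were called lower in both head groups than in Dorsal cells (-0.66 to -0.40). Sfn was also called lower in both head groups than in Ventral cells. Dsp stood at 5.92 in Dorsal 1 and at 3.20 to 3.69 in the other site arrays. The part of these cells in the site differences was not tested. The mean of 7 measured of 10 bone and tooth genes lay between 4.14 and 4.44 in the 12 site arrays. The Schwann list, with 3 of 5 genes measured, was at 5.47 to 5.75 in head arrays and 5.52 to 5.99 in trunk arrays, and the melanocyte list at 5.11 to 5.45 and 5.21 to 5.88.

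EPF against Dorsal cells compared groups with the same labelled gate and tissue and different labelled ages. Of the 8 genes 1 rose and 7 did not pass, while 16.8% of all genes were called and 10.9% were called higher. Msx1 read 8.03, 8.82 and 8.36 in EPF cells and 5.47, 6.24 and 6.43 in Dorsal cells, with no overlap. It was 5.13-fold higher in EPF cells (2.36 ± 0.32, adjusted p = 0.00426 in limma), while its dimmer probe set was higher by 0.62 ± 0.20 without passing (adjusted p = 0.0978 in limma). Dlx1, Dlx2 and Dlx5 differed by 0.06 to 0.22. Among markers, 4 of 8 fibroblast, 3 of 13 keratinocyte and 2 of 5 melanocyte genes were higher in EPF than in Dorsal cells. Their list medians were 0.89, 1.32 and 0.47. Also higher were 1 of 6 skeletal muscle, 1 of 5 endothelial and 1 of 5 leukocyte genes, with list medians of -0.04, 0 and 0.27. Of 7 dermal papilla genes 1 was lower, with a median of 0.42. The part of these cells in the Msx1 difference was not tested. Labelled age and any difference in array handling cannot be told apart from the group here, and the median difference was 0.09 over the 8 genes and 0.01 over all genes.

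Non-coding transcripts of the Dlx clusters were measured for 3 of 4 listed names. Dlx1as, transcribed opposite Dlx1, read 5.12 ± 0.40 in Oral, 4.25 ± 0.14 in Cranial, 3.49 ± 0.03 in Ventral and 3.51 ± 0.12 in Dorsal cells (SD, n = 3 each). It was higher in Oral than Cranial cells by 0.87 ± 0.18 (adjusted p = 0.0442 in limma) and higher in each head group than in each trunk group, with trunk levels near background. In EPF cells it was at 3.60 ± 0.09 and in ENF cells at 4.34 ± 0.65. Dlx6os1 and Dlx4os passed in no comparison, and Dlx6os1 stayed between 3.23 and 3.58 in every group mean. The probe sets were not checked for strand, so signal from a gene and its antisense partner may not be separate.

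Genes with the most similar pattern were sought by Pearson correlation over the 12 site arrays among 3004 genes with a mean of at least 6 in some site group and an SD of at least 0.5. These correlations share the arrays and mostly reflect the differences between the groups. Dlx2 was most like Mab21l2 (r = 0.995), Lrba (0.992) and Clstn2 (0.988). Mab21l2 was at 8.51 in Oral, 7.52 in Cranial, 4.70 in Ventral and 4.62 in Dorsal cells. Dlx1 was most like Gap43 (0.979), Pax3, a paired-type homeobox factor of neural crest (0.977), and Erc2 (0.977). For Dlx1 and Dlx2 themselves r was 0.973.

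Msx1 was most like Rspo2, a secreted Wnt pathway agonist (r = 0.978), Edil3 (0.970) and Barx1, a homeobox factor of the jaw and teeth (0.970). Rspo2 was at 9.75 in Oral, 7.91 in Cranial, 5.33 in Ventral and 5.17 in Dorsal cells, and at 8.28 in EPF and 8.11 in ENF cells. Over all 18 arrays its r with Msx1 was 0.858, and that of Barx1 was 0.122. Dlx5 was most like Hdac6 (0.947), Pkia (0.942) and Smtn (0.940). Dlx3 was most like Lgr6 (0.873), Galnt2 (0.871) and Csf1r (0.827), and as Dlx3 varied little this likeness carries little.

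Other arch patterning genes, 26 measured of 30 listed, were set beside the Dlx and Msx genes. In Oral against Cranial cells 6 were higher, 2 lower and 18 not called, with a median of 0.23 against 0.04 over all genes, of which 1.14% were called and 0.407% were called higher. Six2, Eya1 and Alx1, factors of craniofacial mesenchyme, were higher by 3.04 ± 0.18, 2.42 ± 0.25 and 2.31 ± 0.14. Edn1, which encodes the ligand endothelin-1, was lower, at 7.72 ± 0.23 in Oral and 9.17 ± 0.07 in Cranial cells (adjusted p = 0.0432 in limma), and Emx2, a homeobox factor, fell by 0.84 on the log2 scale. Edn1 and Dlx5 were both highest among the site groups in Cranial cells. The Oral minus Cranial difference of Dlx5 (-0.52 ± 0.16) did not pass the test. Edn1 was also higher in EPF than in Dorsal cells, by 2.53 ± 0.43, where Dlx5 differed by 0.22 ± 0.19 without passing. Any link between Edn1 and Dlx5 was not tested.

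In Oral against Dorsal cells 13 arch genes were higher and none lower (median 0.72, against -0.02 over all genes), and in Cranial against Dorsal cells 11 were higher and none lower (0.56, against -0.06). Against Ventral cells 12 were higher and 1 lower in Oral cells (0.75, against -0.02), and 9 higher and none lower in Cranial cells (0.55, against -0.06). Of all genes 10.5% and 11.2% were called higher in Oral and in Cranial cells against Dorsal, and 10.3% and 11.7% against Ventral. Nr2f1, an orphan nuclear receptor, was higher by 4.66 ± 0.28 in Oral and by 3.84 ± 0.28 in Cranial cells against Dorsal cells, where it was near background at 3.95 ± 0.74. Pou3f3 was higher by 3.63 ± 0.19 in Oral and by 2.27 ± 0.19 in Cranial cells against Dorsal cells, and Eya1 by 4.16 ± 0.25 in Oral cells. Edn1 was higher by 2.06 ± 0.29 in Cranial than in Dorsal cells.

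**Figure D5:**
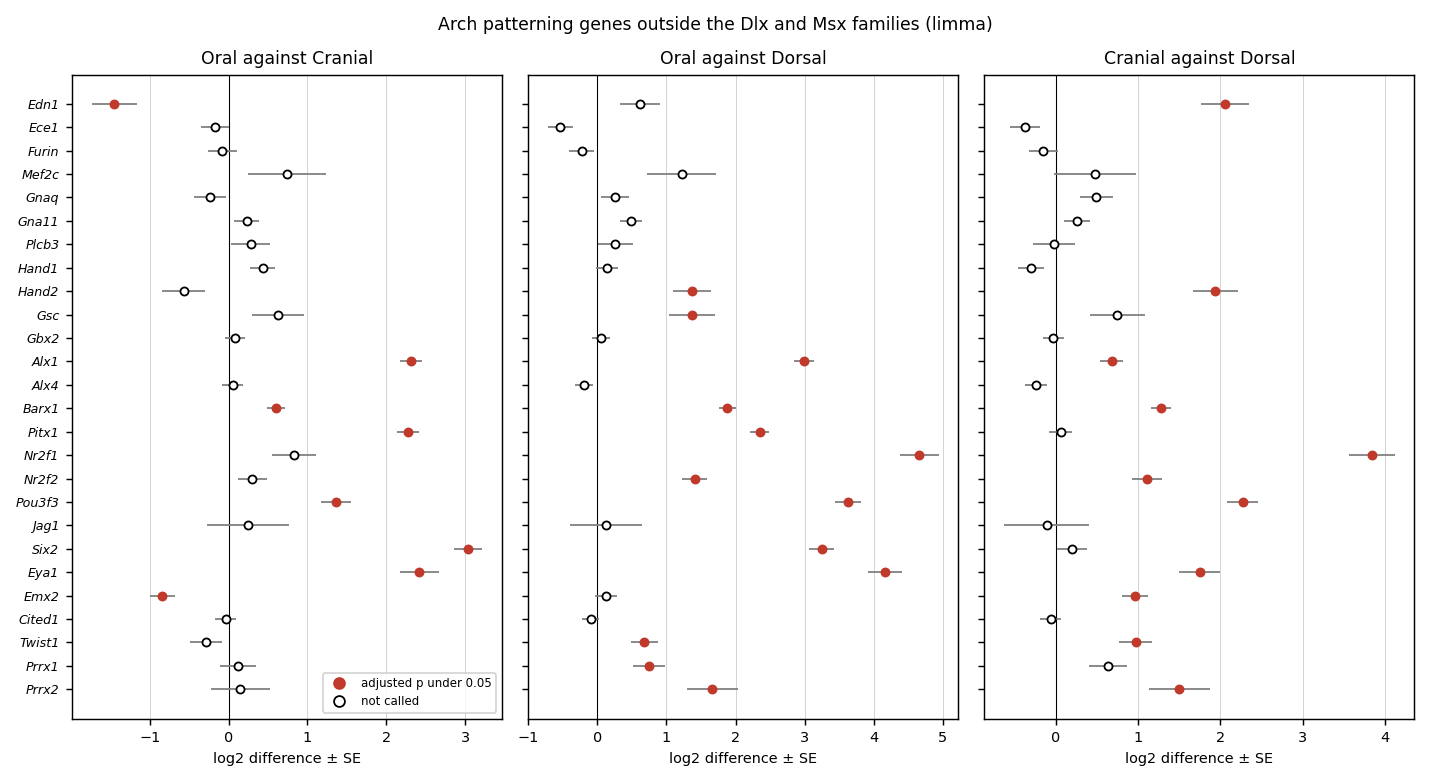
Log2 difference ± SE (x axis, its range differing between panels) of 26 arch patterning genes (y axis) in Oral against Cranial, Oral against Dorsal and Cranial against Dorsal cells; filled points passed an adjusted p under 0.05 in limma. Six2, Eya1 and Alx1 lie to the right and Edn1 and Emx2 to the left in Oral against Cranial cells, and no called gene lies to the left in the other panels.

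Hand2, a bHLH factor downstream of endothelin and Dlx genes in the lower jaw, was the 1 arch gene called in Ventral against Dorsal cells. It stood at 7.04 ± 0.60 in Ventral and 4.60 ± 0.43 in Dorsal cells (2.44 ± 0.27, adjusted p = 0.0157 in limma), and 25 arch genes did not pass, while 0.0275% of all genes were called. It was lower in Oral than Ventral cells by 1.07 on the log2 scale, at 5.96 ± 0.10 against 7.04 ± 0.60. In EPF against ENF cells none of the 26 was called by limma, beside 0.308% of all genes, and 6 had an unadjusted p under 0.05, beside 10.8% of all genes. The widest difference there was in Gsc, an arch homeobox factor, at 3.68 ± 0.49 in EPF and 4.49 ± 0.62 in ENF cells. In EPF against Dorsal cells 6 arch genes were higher, while 10.9% of all genes were called higher, led by Edn1 (2.53 ± 0.43), Mef2c (2.17 ± 0.52) and Nr2f2 (1.90 ± 0.23).

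BMP pathway genes were measured for 22 of 22. Against Dorsal cells 7 were higher and 1 lower in Oral cells, and 7 higher and none lower in Cranial cells. Against Ventral cells 6 were higher and 1 lower in Oral cells, and 7 higher and 1 lower in Cranial cells. The shares of all genes called higher were 10.5% and 11.2% against Dorsal and 10.3% and 11.7% against Ventral cells, for Oral and Cranial cells in that order. Id1, a direct BMP target, was higher by 2.58 ± 0.65 in Oral and by 2.91 ± 0.65 in Cranial cells against Dorsal cells, whose arrays varied (7.56 ± 1.58). Grem1, a secreted BMP antagonist, was lower in Oral cells, at 9.88 ± 0.21 against 11.14 ± 0.61 in Dorsal cells. The list medians ran from 0.30 to 0.41 in these comparisons, against -0.06 to -0.02 over all genes.

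In Oral against Cranial cells 1 of 22 BMP genes was lower, while 1.14% of all genes were called. It was Bmp5, a BMP ligand, at 5.54 ± 0.29 in Oral and 8.13 ± 0.40 in Cranial cells (adjusted p = 7.59e-05 in limma). None was called by limma in Ventral against Dorsal or EPF against ENF cells, where 3 and 4 of 22 had an unadjusted p under 0.05, beside 8.55% and 10.8% of all genes, and the widest differences were in Bmp4 (0.83 ± 0.31) and Grem1 (2.12 ± 0.69). In EPF against Dorsal cells 6 were higher and 1 lower, while 16.8% of all genes were called and 10.9% were called higher. Bmp5 was higher there by 5.25 ± 0.36 and Bmp4 by 3.87 ± 0.29. Grem1 was lower, at 8.11 ± 0.58 in EPF and 11.14 ± 0.61 in Dorsal cells. Any part of these genes in the Msx1 difference was not tested.

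Bone and tooth genes, listed as possible Dlx or Msx targets, were measured for 8 of 12. Whether Dlx or Msx genes act on them was not tested. Beside 18.7% of all genes called against Dorsal and 17.9% against Ventral cells, Phex, an endopeptidase of bone, was higher in Cranial than in Dorsal cells by 0.46 ± 0.14 and than in Ventral cells by 0.65 ± 0.14, all at dim levels of 2.93 to 3.58. Sp7, an osteoblast factor, was lower in Cranial than Ventral cells, at 5.23 ± 0.11 against 5.74 ± 0.26. None was called by limma in the other 6 comparisons, where 0 to 2 of the 8 had an unadjusted p under 0.05, beside 8.28% to 30.4% of all genes. Pth1r, the parathyroid hormone receptor, had the widest difference in EPF against ENF cells, at 8.93 ± 0.41 in EPF and 7.30 ± 0.26 in ENF cells (adjusted p = 0.0521 in limma).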

How the data were processed

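The 18 arrays, 3 for each of 6 groups of sorted cells, were grouped by the sample titles. The authors deposited log2 values, normalized by RMA with quantile normalization in R per the series design text. Of 45101 probe sets, 34945 carried 1 gene symbol in the platform annotation. The brightest probe set of a gene, by its mean over 18 arrays, stood for the gene. Differences were tested in R 4.3.3 with the lmFit and eBayes functions of limma 3.58.1, the 4 site groups in 1 fit and the EPF comparisons on their own 6 arrays each, with Benjamini-Hochberg adjustment over 18193 genes. The test was tried on simulated data. Positions and promoters come from RefSeq GRCm38.p6. The genes and lists were chosen with earlier results of these data known. All 8 genes were named. From each list up to 3 called genes per direction were named, or else the 1 with the largest difference, and 2 markers per other cell type were eligible. Arrays with the same replicate number did not deviate together, so the block stayed an alternative. The number of arrays limits the precision.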

Additional observations from a re-analysis of the deposited data

How the results depend on the processing

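Counts of called genes among the 8 are from limma. The share of all genes called in each setting was not counted, so a changed count may not be particular to these genes. In Oral against Cranial cells the count of 2 became 4 with only these groups in the fit, Msx1 being added as higher and Dlx5 as lower. It was 5 with array weights, Msx1 being added as higher and Dlx4 and Dlx5 as lower. The count was 0 with all 18 arrays. It was 1 with dim genes left out and 1 with the replicate block, Dlx2 being lost in both (adjusted p = 0.0502 and 0.0793 in limma). With each array left out in turn it ran from 0 to 3. In Oral against Ventral cells the 4 became 7 with array weights, Dlx3, Dlx4 and Msx2 being added as lower. The count there was 3 with all 18 arrays and 3 to 4 with arrays left out. In EPF against ENF cells the 0 became 1, Dlx2, with all 18 arrays, and stayed 0 with arrays left out or, chosen after seeing the data, without both ENF 1 and EPF 2. The cause of these changes was not tested. The counts of 4 in Cranial against Dorsal and Cranial against Ventral cells, 1 in EPF against Dorsal and 0 in Ventral against Dorsal held with each array left out, and the 4 in Oral against Dorsal ran from 3 to 5. In Cranial against Ventral cells the count was 6 with array weights, Dlx3 and Msx2 being added as lower, 5 with only these groups, Dlx3 being added, and 3 with probe sets averaged. It was 3 in Cranial against Dorsal with only these groups, and 3 in Oral against Dorsal with only these groups or all 18 arrays. The replicate block, with same-numbered arrays correlating at -0.38 to 0.30 in their deviations, also ended the Dlx5 call in Oral against Ventral cells (adjusted p = 0.0572 in limma). No called difference changed sign in any setting, but none of them used the dimmer Msx1 probe set alone. That probe set was at -0.03 in Cranial against Ventral cells, where Msx1 was called higher.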
